A study of Mus musculus with 6 samples.

Results

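Complement transcripts were examined in bulk RNA-seq of the mouse prostate, for 9 genes of the classical and alternative routes taken by symbol from a table of 24908 genes, where they are written C1QA, C1QB, C1QC, C1RA, C2, C3, C4B, CFB and CFD. All 9 were listed, and 8 had a mean of at least 1 FPKM (a level scaled to transcript length and to the number of mapped fragments) over the 6 libraries. Cfd did not reach it. The libraries came from the anterior (AP), dorsolateral (DLP) and ventral (VP) prostate of 1 wild-type (WT) male and of 1 male littermate heterozygous for a human c-MYC transgene (MYC), both FVB mice of 12 weeks on the same purified diet. In this model, called Hi-MYC, the ARR2Pb promoter, which responds to androgen, drives the transgene in prostate epithelium. Each lobe was dissociated into single cells, and poly(A) RNA of the suspension was sequenced as stranded libraries of 75-base reads.

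Complement is a cascade of mostly secreted proteins that tags and lyses cells and recruits phagocytes. In the classical route, C1q, built from the chains of C1qa, C1qb and C1qc and made mainly by macrophages, binds immune complexes or dying cells and activates the serine proteases C1r and C1s, which cleave C4 and C2 to form a C3 convertase. In the alternative route, factor B (Cfb), cleaved by factor D (Cfd), forms a convertase with C3 itself.

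Each group held 1 library, and the 3 libraries of a genotype came from 1 animal, so that no test between groups was run, since lobes of 1 animal are not replicates of its genotype, and genotype and individual mouse cannot be told apart. The log2 ratio below is log2((FPKM + 1) of one library / (FPKM + 1) of the other), which understates the ratio of low genes, and a difference was counted from 2-fold on that scale. Fold values are ratios of FPKM with exact 95% binomial (Clopper-Pearson) intervals from estimated reads, which cover counting error only. The estimated depth was between 25.4 M (WT AP) and 49.7 M (MYC AP) mapped reads. The gene listed as Myc had 201 to 230.0 FPKM in the WT libraries and 231, 586 and 1696 FPKM in MYC AP, DLP and VP. The luminal keratin Krt8 was present throughout, from 388 to 1292 FPKM. Seminal vesicle secretion genes summed to 524 FPKM over 8 genes in MYC AP, against 0.112 FPKM in WT AP, and to 11.3 FPKM in MYC DLP against 0.186 FPKM in WT DLP. The part of such tissue in the AP and DLP results was not tested.

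In the build named by the labels, mm10, the 3 C1q genes lie within 18.7 kb of chromosome 4 (C1qb at chr4:136880126-136886200, C1qc at chr4:136889801-136892936, C1qa at chr4:136895916-136898844). C1ra lies at chr6:124512621-124523440 in a cluster of 123 kb with C1s1, C1rb and C1s2. C4b (chr17:34728139-34743902), Cfb (chr17:34856374-34862514) and C2 (chr17:34862602-34882100) share 154 kb of the major histocompatibility region with C4a, and 87 bases separate Cfb from C2. C3 lies apart at chr17:57203967-57228136 and Cfd at chr10:79890853-79892655. Coordinates are those of RefSeq on GRCm38.p6.

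The promoters of the C1q chains and of the members on which the results turn are shown as the 250 bases before the start site, from RefSeq on GRCm38.p6, which had an entry for 5 of the 9 members (C1qb, C1qc, C1ra, C3 and Cfd). Capitals mark matches, on either strand, to 5 motifs: the E-box CACGTG, the interferon-gamma element TTCNNNGAA, the core of the interferon-stimulated response element (ISRE), GAGGAA of PU.1 and other ETS factors, and TTNNGNAA of C/EBP factors. C1qb and C1qc are given first because their levels moved together, then C1ra beside its near copy C1rb, then C3.
C1qb: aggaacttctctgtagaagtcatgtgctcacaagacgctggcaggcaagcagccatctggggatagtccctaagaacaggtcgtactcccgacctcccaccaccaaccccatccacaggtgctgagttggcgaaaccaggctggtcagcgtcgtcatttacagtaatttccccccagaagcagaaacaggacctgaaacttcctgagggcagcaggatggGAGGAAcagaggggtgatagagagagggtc
C1qc: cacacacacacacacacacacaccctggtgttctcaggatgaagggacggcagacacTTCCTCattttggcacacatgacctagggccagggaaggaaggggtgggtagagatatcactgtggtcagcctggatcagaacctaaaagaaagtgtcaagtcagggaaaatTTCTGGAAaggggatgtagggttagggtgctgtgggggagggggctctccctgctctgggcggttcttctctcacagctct
C1ra: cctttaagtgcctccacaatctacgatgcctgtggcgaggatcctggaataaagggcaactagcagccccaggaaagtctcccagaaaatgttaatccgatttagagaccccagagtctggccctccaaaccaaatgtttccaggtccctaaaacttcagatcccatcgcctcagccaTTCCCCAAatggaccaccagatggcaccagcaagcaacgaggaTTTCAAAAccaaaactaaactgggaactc
C1rb: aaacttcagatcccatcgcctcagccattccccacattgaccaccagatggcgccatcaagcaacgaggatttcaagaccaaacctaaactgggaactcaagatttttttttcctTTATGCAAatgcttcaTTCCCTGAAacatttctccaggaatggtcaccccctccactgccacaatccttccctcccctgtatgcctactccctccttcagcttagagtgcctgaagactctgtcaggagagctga
C3: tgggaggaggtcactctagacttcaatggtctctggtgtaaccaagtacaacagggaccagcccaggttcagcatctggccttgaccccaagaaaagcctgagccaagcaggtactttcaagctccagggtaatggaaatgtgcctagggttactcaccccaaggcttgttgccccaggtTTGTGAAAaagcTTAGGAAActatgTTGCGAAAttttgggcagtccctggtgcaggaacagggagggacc

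These sequences stand at chr4:136886201-136886450 (minus strand) for C1qb, chr4:136892915-136893164 (minus strand) for C1qc, chr6:124512371-124512620 (plus strand) for C1ra, chr6:124570180-124570429 (plus strand) for C1rb and chr17:57228137-57228386 (minus strand) for C3. The start used for C1qc lies inside the annotated gene, so that 22 of its 250 bases belong to the gene span given above. GAGGAA stood at -30 to -25 of C1qb and, on the other strand, at -193 to -188 of C1qc. It occurs in 23.3% of the 32851 promoters of the same length. The C/EBP letters occurred in 3 stretches of the C3 promoter, between -70 and -38, and 2.61% of all promoters hold 3 or more. C1qc and C1rb had 1 such stretch and C1ra had 2, and 36.8% of promoters have at least 1. TTCNNNGAA matched in C1rb, at -119 to -111 (7.02% of promoters). CACGTG (6.02%) and the ISRE core (2.98%) were not found in the promoters of these 5 members or of C1rb, and Cfd had no match to any of the 5 motifs. C1ra and C1rb shared a run of 34 bases, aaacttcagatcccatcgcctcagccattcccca, at -99 to -66 of C1ra and at -250 to -217 of C1rb. At that offset, 93.9% of the 99 bases compared were equal.

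The C1q chains set the MYC animal apart in DLP and VP but not in AP. C1qa, which encodes the A chain, had 45.8, 19.2 and 10.4 FPKM in WT AP, DLP and VP, and 42.2, 93.8 and 61.4 FPKM in MYC AP, DLP and VP. C1qb, the B chain, had 32.9, 11.7 and 7.44 FPKM in the WT lobes and 32.1, 72.6 and 47.97 FPKM in the MYC lobes. C1qc, the C chain, had 30.3, 11.7 and 5.03 FPKM in WT and 29.6, 73.5 and 45.0 FPKM in MYC, in the same order of lobes. MYC DLP and MYC VP were the highest libraries for each chain, and the AP libraries of both genotypes lay close together. C1qa was 4.89-fold higher in MYC than in WT in DLP (4.51 to 5.30) and 5.91-fold in VP (5.33 to 6.57). For C1qb the folds were 6.20 (5.62 to 6.85) in DLP and 6.45 (5.73 to 7.28) in VP. For C1qc they were 6.30 (5.71 to 6.97) and 8.94 (7.75 to 10.3), and the VP interval of C1qc lay above those of C1qa and C1qb. In AP the ratios of MYC to WT were 0.921 for C1qa (0.851 to 0.997), 0.977 for C1qb (0.895 to 1.07) and 0.979 for C1qc (0.891 to 1.08), and the intervals of C1qb and C1qc included 1.

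**Figure D1:**
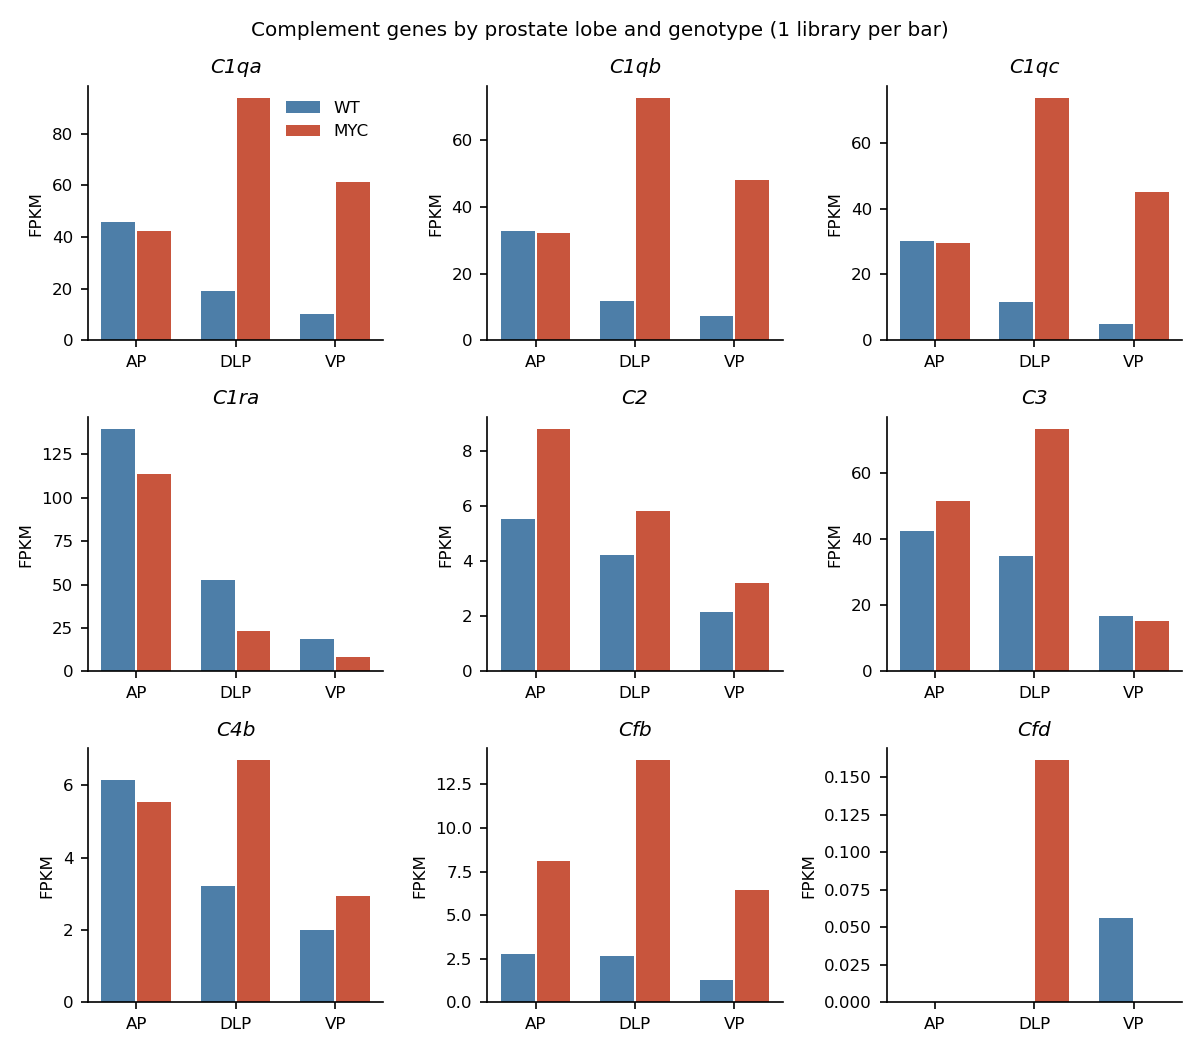
FPKM of the 9 complement genes (vertical axes, each from 0 and on its own scale) in the AP, DLP and VP of the WT (blue) and the MYC mouse (red), 1 library per bar. C1qa, C1qb and C1qc were highest in MYC DLP, from 72.6 to 93.8 FPKM, and lowest in WT VP, C1ra was highest in the AP libraries, and missing bars of Cfd are values listed at 0.

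In the WT mouse the order of the lobes was AP over DLP over VP for each chain, and each of these steps exceeded counting error. C1qa was 2.38-fold higher in AP than in DLP (2.17 to 2.62) and 1.85-fold higher in DLP than in VP (1.64 to 2.09). In the MYC mouse the order was DLP, then VP, then AP. There C1qa was 1.53-fold higher in DLP than in VP (1.44 to 1.62) and 1.46-fold higher in VP than in AP (1.37 to 1.55). The last step turned when the libraries were scaled to their luminal keratins Krt8 and Krt18, by which the log2 ratio of C1qa between MYC AP and MYC VP went from -0.53 to 0.97, and those of C1qb and C1qc changed sign with it. The keratins were themselves higher in VP, and between these libraries the median over all genes was 0.02 before that scaling and 1.32 after it, so that each chain stayed below that median. Per transcript length the chains were not equal. C1qb stood at 0.609 to 0.781 of C1qa over the 6 libraries. C1qc stood at 0.661, 0.608 and 0.485 of C1qa in WT AP, DLP and VP and at 0.703, 0.783 and 0.733 in the MYC lobes, lowest in WT VP.

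Most markers of macrophages moved with C1q. Of 14 macrophage and monocyte genes, 12 passed the minimum level, and 12 of these were at least 2-fold higher in MYC DLP, 10 in MYC VP and 0 in MYC AP, against 2.05%, 6.46% and 6.88% of all genes in AP, DLP and VP. Their median log2 ratios in that order were -0.22, 1.69 and 1.34. Their summed level was 196, 86.0 and 58.5 FPKM in WT AP, DLP and VP and 173, 428 and 274 FPKM in the MYC lobes, which are the lobe orders of C1q itself. Csf1r, the receptor on which macrophages depend, had 14.3, 5.66 and 2.53 FPKM in WT and 10.2, 16.3 and 6.61 FPKM in MYC. Mrc1, another of the 12, had 3.87, 1.93 and 2.47 FPKM in WT and 5.45, 5.25 and 1.62 FPKM in MYC, so that it was lower in MYC VP. Cd163, a marker of some resident macrophages, was at most 1.23 FPKM in any library and lower in MYC in each lobe. Ptprc, which marks all leukocytes, had 4.59, 3.18 and 1.91 FPKM in WT and 4.62, 11.4 and 4.72 FPKM in MYC. In bulk libraries a change in the number of cells of a type and a change in RNA per cell cannot be told apart.

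The C1q chains summed to 0.555, 0.495 and 0.391 of the macrophage sum in WT AP, DLP and VP and to 0.602, 0.560 and 0.564 in the MYC lobes. The choice of the reference gene set the direction of such a comparison. Relative to Csf1r, the C1q sum was 7.60, 7.52 and 9.03 in the WT lobes and 10.2, 14.8 and 23.3 in the MYC lobes, higher in MYC throughout. Relative to Lyz2, the lysozyme of myeloid cells, it was 2.37, 3.60 and 2.92 in WT and 2.16, 1.82 and 1.41 in MYC, lower in MYC throughout. In VP the log2 ratio of C1qc (2.93) exceeded that of 11 of the 12 macrophage markers, and that of C1qa (2.45) exceeded 10. By Pearson's correlation of log2(FPKM + 1) over the 6 libraries, the genes most like the mean of the C1q chains, out of 5296 whose mean reached 10 FPKM with no value of 0, were Mpeg1 (perforin-2 of macrophages, r = 0.993), Laptm5 (a lysosomal protein of leukocytes, 0.991) and Fcer1g (a signalling chain of Fc receptors, 0.991). In all, 89 genes had r over 0.9, over 6 points from 2 mice.

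C1ra, which encodes the protease C1r, went the other way. It had 139.6, 52.7 and 18.7 FPKM in WT AP, DLP and VP and 114, 23.3 and 8.04 FPKM in MYC AP, DLP and VP. In both mice AP was the highest lobe and VP the lowest, and in each lobe the MYC library was the lower one. C1ra was 2.26-fold lower in MYC than in WT in DLP (2.14 to 2.38), 2.32-fold lower in VP (2.14 to 2.52) and 1.23-fold lower in AP (1.19 to 1.26). Between lobes it was 7.48-fold higher in AP than in VP in the WT mouse (7.14 to 7.84) and 14.1-fold in the MYC mouse (13.2 to 15.2).

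The neighbouring genes of the chromosome 6 cluster followed the same lobe order. C1rb, the near copy of C1ra, had 369, 78.2 and 6.70 FPKM in WT AP, DLP and VP and 259, 17.2 and 2.88 FPKM in MYC. C1s2, a copy of the C1s gene, had 217, 17.1 and 4.66 FPKM in WT and 163, 6.29 and 1.37 FPKM in MYC. C1s1, which encodes the protease C1s, had 67.3, 39.8 and 23.2 FPKM in WT and 70.3, 19.0 and 6.92 FPKM in MYC. The copies C1rb and C1s2 were thus the more abundant genes in AP and the less abundant ones in VP. C1rb stood at 2.65 of C1ra in WT AP and at 0.359 in WT VP, and C1s2 at 3.22 of C1s1 in WT AP and at 0.201 in WT VP. In the MYC mouse these ratios were 2.28 and 0.358 for C1rb and 2.32 and 0.197 for C1s2. C1rb was 55.2-fold higher in AP than in VP of the WT mouse (51.0 to 59.8), and C1s2 46.6-fold (42.3 to 51.5), against 2.90-fold for C1s1 (2.73 to 3.09).

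Reads cannot be split with certainty between C1ra and C1rb. Of the 75-base windows of the longest C1ra transcript, 39.4% occur unchanged in C1rb, and 50.5% of those of C1rb occur in C1ra. For C1s1 and C1s2 the shares were 14.7% and 19.1%. Summed over C1ra and C1rb, the levels were 509, 131 and 25.4 FPKM in WT and 372, 40.6 and 10.9 FPKM in MYC, with log2 ratios of MYC to WT in AP, DLP and VP of -0.45, -1.66 and -1.14.

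**Figure D2:**
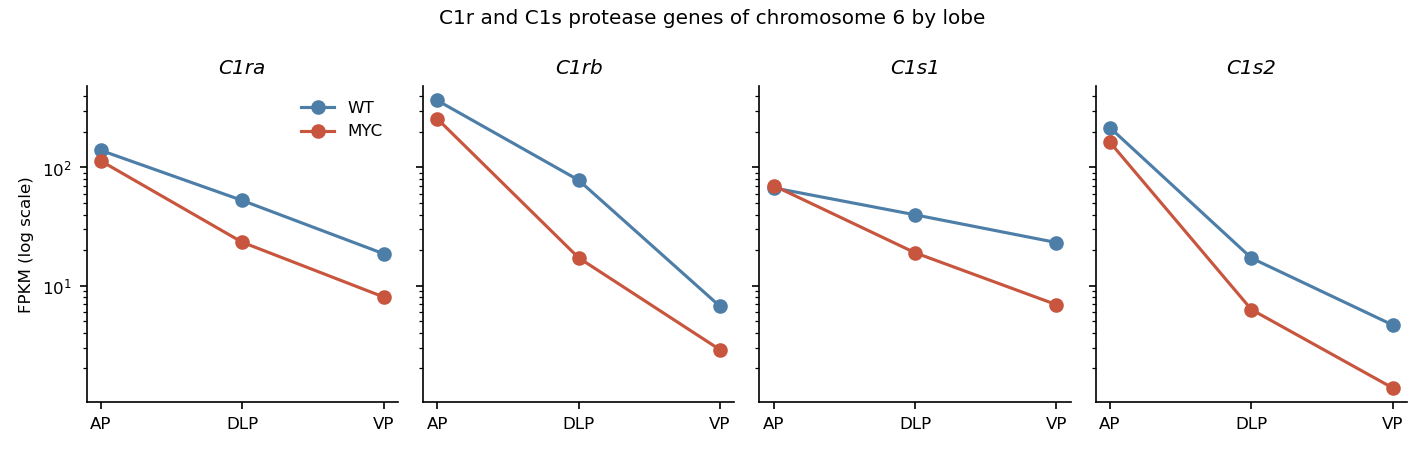
FPKM on a log scale of C1ra, C1rb, C1s1 and C1s2 in AP, DLP and VP of the WT (blue) and the MYC mouse (red), 1 library per point, with lines joining the lobes of 1 mouse. Each gene was highest in AP and lowest in VP in both mice, with C1rb spanning from 369 to 6.70 FPKM in WT, and the MYC points lay below the WT points in DLP and VP.

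Stromal genes moved with C1ra in part. Of 12 fibroblast and stroma genes, 4 were at least 2-fold lower in MYC DLP and 2 at least 2-fold higher, 8 were lower and 0 higher in MYC VP, and 3 were higher and 0 lower in MYC AP. Of all genes, 0.599%, 3.39% and 5.95% were lower by that amount in AP, DLP and VP, and 2.05%, 6.46% and 6.88% were higher. The summed level of the list was 2558, 2893 and 1842 FPKM in WT AP, DLP and VP, highest in DLP, and 2838, 1398 and 454 FPKM in the MYC lobes. Relative to Pdgfra, a receptor of fibroblasts, C1ra stood at 5.95, 1.98 and 1.27 in WT AP, DLP and VP and at 4.05, 3.01 and 2.12 in the MYC lobes. As a percentage of the summed stroma list it was 5.46, 1.82 and 1.01 in WT and 4.01, 1.67 and 1.77 in MYC. By both references C1ra was lower in MYC in AP and higher in VP, and in DLP it was higher per Pdgfra and lower per stroma sum. Median log2 ratios of MYC to WT in AP, DLP and VP were 0.41, -0.42 and -1.52 for the stroma list. They were 0.76, -1.05 and -0.81 for 6 smooth muscle markers, and C1ra had -0.29, -1.14 and -1.12. The part of stromal or smooth muscle cell content in the level of C1ra was not tested. The genes most like C1ra over the 6 libraries were Tgfbr1, a receptor of TGF-beta (r = 0.998), Gcc1, a Golgi protein (0.996), and Osr2, a transcription factor of mesenchyme (0.996), and 349 of 5298 genes had r over 0.9.

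Factor B was the member that was at least 2-fold higher in MYC in all 3 lobes. Cfb had 2.77, 2.65 and 1.30 FPKM in WT AP, DLP and VP and 8.10, 13.9 and 6.45 FPKM in MYC. All 3 MYC libraries were above all 3 WT libraries. The folds were 2.92 in AP (2.37 to 3.61), 5.24 in DLP (4.46 to 6.18) and 4.97 in VP (3.99 to 6.29). In WT the levels of AP and DLP did not differ beyond counting error (ratio 1.05, 0.820 to 1.33), and both were above VP. In MYC the order was DLP, AP, VP.

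C2, the neighbour of Cfb on chromosome 17 and its counterpart in the classical convertase, differed less. It had 5.55, 4.22 and 2.16 FPKM in WT AP, DLP and VP and 8.80, 5.81 and 3.19 FPKM in MYC. C2 was 1.58-fold higher in MYC in AP (1.31 to 1.92), 1.38-fold in DLP (1.13 to 1.68) and 1.48-fold in VP (1.15 to 1.92), below 2-fold in each lobe. C2 exceeded Cfb in the WT libraries, where Cfb stood at 0.499, 0.628 and 0.601 of C2 in AP, DLP and VP. In the MYC lobes it stood at 0.920, 2.39 and 2.02 of C2, so that the order of these neighbours turned in DLP and VP. An annotated read-through locus, Gm20547, holds 81.2% of the 75-base windows of Cfb and 55.6% of those of C2 and is not listed in the table under that symbol, and how its reads were assigned is not given in the sources used here.

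C4b, which encodes complement C4, had 6.14, 3.22 and 1.99 FPKM in WT AP, DLP and VP and 5.54, 6.69 and 2.95 FPKM in MYC. It was 2.08-fold higher in MYC in DLP by FPKM (1.80 to 2.402), with a log2 ratio of 0.87 that was under the threshold but over it (1.033) with a pseudocount of 0.1, and 1.48-fold higher in VP (1.23 to 1.79). The AP libraries did not differ beyond counting error, with a ratio of 0.903 (0.788 to 1.04). Its copy C4a had 1.59, 0.973 and 0.523 FPKM in WT and 1.20, 1.52 and 0.703 FPKM in MYC, and made up 17.9% to 23.2% of the pair in the 6 libraries. Of the 75-base windows of C4b, 23.5% are shared with C4a.

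C3, the protein on which the routes converge, had 42.4, 35.02 and 16.8 FPKM in WT AP, DLP and VP and 51.5, 73.3 and 15.2 FPKM in MYC AP, DLP and VP. MYC DLP was the highest library, and the VP libraries of both mice were the lowest. C3 was 2.09-fold higher in MYC in DLP (2.03 to 2.15), 1.22-fold higher in AP (1.18 to 1.26) and 1.10-fold lower in VP (1.05 to 1.15). The DLP value stands at the threshold: its log2 ratio of 1.04 was between 0.82 and 1.06 under 5 alternatives and below 1 in 4 of them. In the MYC mouse C3 was 4.82-fold higher in DLP than in VP (4.63 to 5.01), against 2.09-fold in the WT mouse (2.01 to 2.17).

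Cfd, known as adipsin for its abundance in fat, was listed at 0 in WT AP, WT DLP, MYC AP and MYC VP. Its VP value in the WT mouse was 0.0563 FPKM, about 2 reads, and its DLP value in the MYC mouse 0.161 FPKM, about 4 reads. A count of 0 allows up to 0.163 FPKM in WT AP, 0.0882 FPKM in WT DLP, 0.0835 FPKM in MYC AP and 0.101 FPKM in MYC VP (3 reads). The MYC DLP value lay above the limits of WT DLP, MYC AP and MYC VP and below that of WT AP, and no fold is given at so few reads. Markers of adipocytes were mixed. Of 10 such genes, 3 passed the minimum level: Fabp4, which capillaries also express, with 27.2 to 64.8 FPKM, and the lipases Pnpla2, with 17.5 to 29.2 FPKM, and Lipe, with 8.18 to 21.0 FPKM. The other 7 were under 1 FPKM in every library, the highest being Plin4 at 0.945 FPKM. Plin1 was listed at 0 in all 6 libraries, and Adipoq was listed at 0 in 5 and had 0.0583 FPKM in MYC AP. The summed level of the list came nearly all from Fabp4, Pnpla2 and Lipe. It was 87.2, 104 and 56.3 FPKM in WT AP, DLP and VP and 102, 114 and 71.8 FPKM in the MYC lobes.

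**Figure D3:**
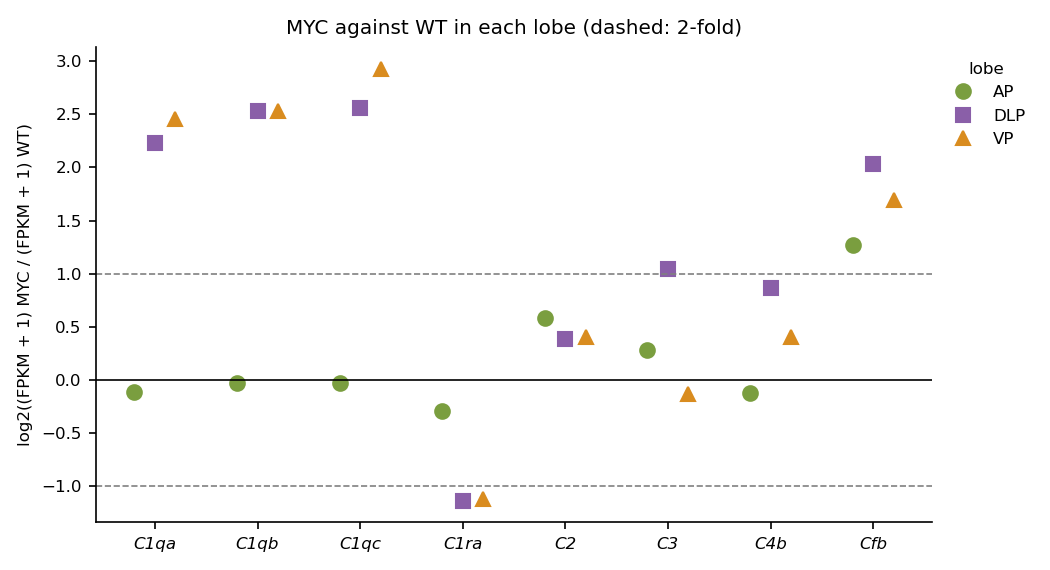
Log2 ratio of MYC to WT (vertical axis) of the 8 complement genes that passed the minimum level, in AP (circles), DLP (squares) and VP (triangles), with dashed lines at 2-fold. The C1q chains lie between 2.23 and 2.93 in DLP and VP and near 0 in AP, C1ra lies below -1 in DLP and VP, and Cfb lies above 1 in all 3 lobes.

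Counted over the 9 members, C1qa, C1qb, C1qc, C3 and Cfb (5 genes) were at least 2-fold higher in MYC DLP, as were 6.46% of all 12361 genes compared. In VP the count was 4 (the C1q chains and Cfb), against 6.88% of all genes, and in AP it was 1 (Cfb), against 2.05%. C1ra was the single member at least 2-fold lower in DLP (3.39% of all genes) and in VP (5.95%), and no member was in AP (0.599%). Scaling to Krt8 and Krt18 brought the VP log2 ratio of C1ra from -1.12 to -0.83, under the threshold, which left 4 members higher and 0 lower there, against 2.82% of all genes lower. The all-gene median there was 0.04 before and 0.24 after it. The median log2 ratios of the 8 members compared in AP, DLP and VP were -0.03, 1.54 and 1.05, and those of all genes 0.13, 0.03 and 0.04. The 3 C1q genes encode chains of 1 protein and lie in 1 cluster, so that these are not counts of independent genes.

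Between lobes of the WT mouse, all 8 members compared had the order AP over DLP over VP, which 28.3% of all genes had. For Cfb the step from AP to DLP was within counting error. AP was the highest lobe of 32.4% of all genes and VP the lowest of 46.7%. The C1q chains and C1ra (4 members) were at least 2-fold higher in WT AP than in WT DLP (1.31% of all genes) and none was lower (3.85%). Against WT VP, 7 members were higher in WT AP (10.3%) and none was lower (7.89%), and Cfb was short of the threshold at a log2 ratio of 0.71. C1qc, C1ra and C3 (3 members) were higher in WT DLP than in WT VP (6.29%), and none was lower (2.63%).

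The lobes of the MYC mouse stood in another order. C1ra and C2 (2 members) had AP over DLP over VP (27.4% of all genes), and the other 6 were highest in DLP (28.1%). VP was the lowest lobe for 5 members, all but the C1q chains (44.6%). C1ra was at least 2-fold higher in MYC AP than in MYC DLP (3.49%) and the 3 C1q chains were lower (4.54%). C1ra, C2 and C3 (3 members) were higher in MYC AP than in MYC VP (16.1%) and none was lower (8.98%). C1ra and C3 (2 members) were higher in MYC DLP than in MYC VP (14%) and none was lower (3.54%). Scaling to the keratins, which were highest in VP, raised most genes of the other lobes against VP. By it all 8 members were at least 2-fold higher in MYC DLP than in MYC VP, as were 48.04% of all genes, and all 8 were in WT DLP over WT VP, as were 81.6%. No member was then lower in MYC AP than in MYC DLP (2.43%). The comparisons share libraries. Cell type markers differed between the same lobes, with Krt8 at 399.9, 446 and 1292 FPKM in WT AP, DLP and VP and 6 endothelial markers summing to 149, 113 and 24.5 FPKM, and their part in the lobe order was not tested.

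**Figure D4:**
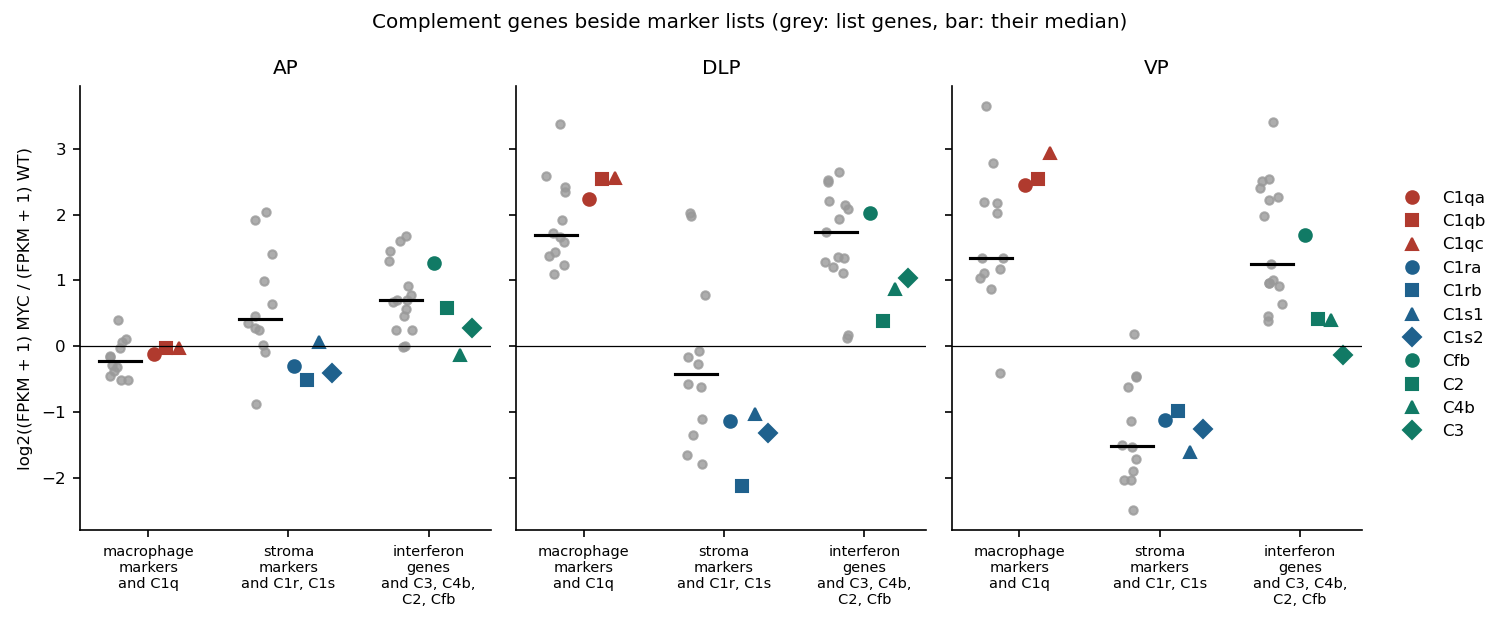
Log2 ratio of MYC to WT in AP, DLP and VP for genes of the macrophage, stroma and interferon lists that passed the minimum level (grey points, bars at the list medians), each beside the complement genes set against it (red, blue and green symbols, 1 shape per gene). The C1q chains stand above the macrophage median in each lobe, and Cfb stands above the interferon median in each lobe while C2, C4b and C3 stand below it.

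Interferon-stimulated genes were set beside Cfb. Of 15 such genes, 4 were at least 2-fold higher in AP, 13 in DLP and 9 in VP, against 2.05%, 6.46% and 6.88% of all genes, none was lower by that amount, and their median log2 ratios in AP, DLP and VP were 0.70, 1.74 and 1.25. Cfb, with log2 ratios of 1.27, 2.03 and 1.70, exceeded the median in each lobe, and C2, C3 and C4b stayed below it. Of 11 genes of NF-kappaB and the acute phase, 0 were at least 2-fold higher in AP, 2 in DLP and 1 in VP, and 0, 1 and 2 were lower. By that amount 0.599%, 3.39% and 5.95% of all genes were lower in AP, DLP and VP. Whether either response had a part in the level of Cfb was not tested. The genes most like Cfb over the 6 libraries were Bcl7c, a chromatin remodelling subunit (r = 0.987), Irf7, a transcription factor of the interferon response (0.985), and Gusb, a lysosomal enzyme (0.983). For C3 they were Ifngr1, a receptor of interferon-gamma (0.995), Arpc1b, a subunit of an actin nucleator (0.995), and Alcam, an adhesion protein (0.994). C4b was most like Helz2 (0.992), Scaf4 (0.976) and Gng12 (0.975), and C2 most like Eps15, of endocytosis (0.989), Rab22a, of endosomal traffic (0.988), and Katna1, a microtubule-severing enzyme (0.987). Between 88 and 201 genes had r over 0.9 with each of these 4 members.

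Of 42 further complement genes looked up, 22 passed the minimum level. Of these, 6 were at least 2-fold higher and 7 lower in MYC DLP, 2 higher and 6 lower in MYC VP, and 1 higher and 0 lower in MYC AP. As shares of the 22 the higher genes were 4.55%, 27.3% and 9.09% in AP, DLP and VP, against 2.05%, 6.46% and 6.88% of all genes, so that the share in VP was near that of all genes. The lower genes were 0%, 31.8% and 27.3%, against 0.599%, 3.39% and 5.95%. Among 8 regulators compared, 4 were lower and 1 higher in DLP, and 4 lower and 0 higher in VP. Serping1, the C1 inhibitor, had 456, 411 and 227 FPKM in WT AP, DLP and VP and 414, 173 and 78.6 FPKM in MYC. It was at least 2-fold lower in MYC DLP and VP, with log2 ratios of -1.24 and -1.52, and at -0.14 in AP. Cd59a, which blocks the lytic pore, had 94.9, 54.7 and 18.8 FPKM in WT and 53.1, 6.99 and 6.05 FPKM in MYC. Cd55, which speeds convertase decay, had 33.4, 19.9 and 17.4 FPKM in WT and 40.5, 21.1 and 6.63 FPKM in MYC. It was at least 2-fold lower in MYC VP only. Clu, clusterin, went the other way, with 304, 456 and 306 FPKM in WT and 741, 1636 and 385 FPKM in MYC. Cr1l, the rodent regulator Crry, stayed between 26.4 and 31.1 FPKM in the 6 libraries.

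Of 6 complement receptor genes compared, 0 were at least 2-fold higher in MYC AP, 4 in MYC DLP (C3ar1, Itgam, Itgax and Itgb2) and 2 in MYC VP (C3ar1 and Itgb2). The shares of all genes higher by that amount were 2.05%, 6.46% and 6.88% in AP, DLP and VP. C3ar1, Itgam, Itgax and Itgb2 were named here after their values were seen. C3ar1, the receptor of the C3a fragment, had 2.85, 1.48 and 0.609 FPKM in WT and 2.15, 5.12 and 2.77 FPKM in MYC. Cd93, a surface protein of endothelium and myeloid cells, had 10.6, 8.68 and 2.02 FPKM in WT and 12.4, 11.8 and 3.32 FPKM in MYC. Properdin (Cfp), which stabilises the alternative convertase and was also named after its values were seen, had 4.10, 1.79 and 1.41 FPKM in WT and 4.17, 9.10 and 2.01 FPKM in MYC. C3ar1 and Cfp were highest in MYC DLP, and Cd93 was highest in MYC AP. Of the lectin route, Masp1, a protease, had 10.02, 5.68 and 1.81 FPKM in WT and 12.6, 4.47 and 0.772 FPKM in MYC, and Colec12, a scavenger receptor with a collectin domain, 15.4, 15.2 and 8.21 and 18.6, 9.83 and 3.69 FPKM. Of the terminal components, C7 passed the minimum level, with 12.7, 29.8 and 4.95 FPKM in WT and 20.8, 17.2 and 4.54 FPKM in MYC. The other 6 terminal genes did not pass it. None of 5 liver and plasma genes passed it, and they summed to 0.406, 0.238 and 0.650 FPKM in WT AP, DLP and VP and to 0.772, 1.36 and 1.26 FPKM in the MYC lobes. The highest single value was 1.01 FPKM for Ttr, transthyretin, in MYC VP.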

How the data were processed

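Bulk poly(A) RNA-seq of 6 prostate libraries was analysed, 1 per lobe and genotype, grouped by their source labels. The submitters' processing notes name bcl2fastq 2.18 and mm10, and by the study's methods STAR aligned the reads and Cufflinks gave the gene values. The deposited values are FPKM: they are not whole numbers and sum to 374085 to 483143 per library. They were used as deposited. No count model and no p-value was computed, since each group held 1 library.

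A minimum mean of 1 FPKM left 12361 genes. To estimate depth, low values (under 0.3 FPKM) of single-exon genes longer than 600 bases were read as multiples of 1 read, assuming fragments of 200 bases. Between 47.3% and 55.4% of such values lay within 0.05 of a whole read. Reads per gene followed from FPKM, depth and the mean GENCODE M1 transcript length and served only for intervals. WT AP was the shallowest library.

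The 9 members and all lists were chosen with earlier results of these data known. Named pathway genes had a mean of at least 5 FPKM or were near copies of a member (C4a, C1rb). A gene that this rule names is not reported here. Pathway genes named outside this rule are marked as named after their values were seen. Genes alike were the 3 with the highest correlation whose mean reached 10 FPKM. Motifs were searched in 250 bases upstream of RefSeq starts. Shared 75-base windows were counted between GENCODE M1 transcripts. Alternatives were 4 scalings, a pseudocount of 0.1, no filter, a minimum of 10 FPKM, and thresholds of 1.5-fold and 4-fold. Sums of near copies, the alternatives for counts between lobes and the filters for lobe orders were added after seeing the data. Scripts were tested on simulated data (Python 3.11.15, numpy 2.4.6, pandas 2.3.3, scipy 1.17.1, matplotlib 3.10.9).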

Additional observations from a re-analysis of the deposited data

Results flagged for a closer look

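The log2 ratio of MYC to WT had opposite signs in 2 lobes, at least 1 apart, in 7 of 24 pairs of lobes over the 8 members compared, and in 6.89% of such pairs over all genes compared. The 3 C1q chains, which lie in 1 cluster, make up 6 of the 7. By pair of lobes, 3 members met this between AP and DLP (6.38% of all genes), 3 between AP and VP (10.2%) and 1 between DLP and VP (4.07%). These differences between lobes were not tested, since each lobe and genotype had 1 library. C1qa went from -0.12 in AP to 2.23 in DLP (a difference of 2.35) and 2.45 in VP (2.57). C1qb differed from AP by 2.57 both in DLP and in VP, and C1qc by 2.58 in DLP and 2.96 in VP. In AP these ratios lay close to 0, and scaling to Krt8 and Krt18 made them positive, at 0.06, 0.15 and 0.15 for C1qa, C1qb and C1qc, while the median of all genes went from 0.13 to 0.30. C3 had 1.04 in DLP and -0.13 in VP, a difference of -1.17, and the VP value was 0.11 with the same scaling, by which the median of all genes went from 0.04 to 0.24.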

How the results depend on the processing

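No paired analysis was run, since the labels give no replicate numbers and a fit of lobe and mouse would take the lobes of 1 animal as replicates of its genotype. Scaling by medians of ratios gave member medians in AP, DLP and VP of -0.18, 1.47 and 0.99, equal sums 1.48 in DLP and 0.87 in VP, equal sums without the 20 highest genes 1.38 and 0.85, and scaling to Krt8 and Krt18 0.15, 1.37 and 1.05 in AP, DLP and VP. The median of all genes moved by over 0.1 with them, in AP from 0.13 to 0.00 (medians of ratios) and 0.30 (keratins), in DLP from 0.03 to -0.11 without the 20 highest genes and -0.17 (keratins), and in VP from 0.04 to -0.15 (equal sums), -0.18 without the 20 highest genes and 0.24 (keratins). Without a filter the member median was 1.04 in DLP and 0.41 in VP, and with a minimum of 10 FPKM, which left 5 members, 2.23 and 2.45. Shares in parentheses are those of all genes under the same setting. That minimum left 0 members higher in AP (2.183%), as did the 4-fold threshold (0.542%), by which 0 members were lower in DLP (0.631%) and VP (0.922%). With keratin scaling 0 members were lower in VP (2.82%), and VP was the lowest MYC lobe for 8 members instead of 5 (93.4%). The other counts of members between genotypes stayed within 1.5 times, as did the counts of members in the other lobe orders under the 4 scalings. Over these 4, AP over DLP over VP held for 28.4% to 40.8% of all genes in WT and 24.4% to 73.9% in MYC. DLP was the highest MYC lobe for 20.5% to 21.8%. Lobe orders under other filters were added after seeing the data. With a minimum of 10 FPKM, 5 of 5 members had AP over DLP over VP in WT (25.4%) and 1 of 5 in MYC (23.2%), and VP was the lowest MYC lobe for 2 of 5 (39.9%). Counts between lobes of 1 mouse, whose alternatives were added after seeing the data, moved more. At 4-fold, 0 members were higher in WT AP than in WT DLP (0.227%), 4 in WT AP than in WT VP (1.61%), 0 in WT DLP than in WT VP (0.744%), 1 in MYC AP than in MYC VP (4.51%) and 1 in MYC DLP than in MYC VP (2.45%), and 0 were lower in MYC AP than in MYC DLP (0.728%). At 1.5-fold, 7 were higher in WT DLP than in WT VP (17.9%), 8 in MYC DLP than in MYC VP (24.8%), and 1 was lower in MYC AP than in MYC VP (20.2%). For WT DLP over WT VP (3 members), medians of ratios gave 1 (4.30%), sums without the 20 highest genes 1 (5.42%) and keratins 8 (81.6%). For MYC AP under MYC DLP (3), equal sums gave 1 (2.94%), sums without the 20 highest genes 1 (3.08%) and keratins 0 (2.43%). Keratins gave 5 for MYC AP over MYC VP (3; 67.3%) and 8 for MYC DLP over MYC VP (2; 48.04%), where equal sums gave 4 (15.2%) and the pseudocount of 0.1 gave 4 (19.6%). Keratin scaling moved the median of all genes between lobes by up to 1.31. Of the single log2 ratios of members that passed 2-fold, none changed sign under the 5 alternatives or the sums of near copies, which were added after seeing the data. C3 between WT DLP and WT VP (1.02, lowest 0.81), C1qc there (1.07, lowest 0.88), and C1qa, C1qb and C1qc between MYC AP and MYC DLP (-1.14, -1.15 and -1.28, nearest to 0 at -0.70, -0.72 and -0.85) were below 2-fold under at least 1 alternative, as were C3 in DLP and C1ra in VP between genotypes. Of the ratios under 2-fold, 1 of 12 between genotypes (C4b in DLP) and 14 of 25 between lobes passed it under at least 1 alternative. Depth limits Cfd and, with 98 to 111 reads in WT VP, Cfb and C2.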
